A study of Cucumis melo with 30 samples.

Results

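CmACO1 (MELO3C014437) and CmNAC-NOR (MELO3C016540) are 2 genes of the melon ripening pathway, taken by identifier out of 27427 genes in a table of RNA sequencing counts from oriental melon fruit. Oriental melon belongs to Cucumis melo, a fruit crop in which some types ripen with a burst of ethylene. The fruit came from 2 cultivars, YMR-WF and HDB-OF (YMR and HDB from here on), sampled at days 5, 15, 25, 30 and 35 after anthesis, the opening of the flower. Every cultivar was sequenced in 3 libraries a day, which gives 10 groups and 30 libraries. No treatment or transgene is named and the tissue is given only as fruit. Whether libraries of 1 group stem from separate fruits is not stated, so the p-values below measure the spread between these libraries, which may be technical. The table carries identifiers only, so the names of both genes rest on their published use for these identifiers and could not be checked in the data. For the same reason, markers of flesh, rind or seed could not be looked up.

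Melon ripening is driven in part by ethylene, a gaseous hormone. The plant makes it from S-adenosylmethionine in a pair of steps: ACC synthase makes the precursor ACC, and ACC oxidase turns ACC into ethylene. CmACO1 is the ACC oxidase known for its expression in ripening melon, and melons carrying an antisense copy of it make little ethylene. CmNAC-NOR is a transcription factor of the NAC family, the melon counterpart of the tomato regulator NOR (NON-RIPENING). Ripening is blocked in tomato that carries the nor mutation. The gene lists for the other steps of ethylene synthesis and signalling could not be applied, because 0 of the 27427 identifiers matched the table of 28628 named melon genes.

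The unit of level used here is CPM, the count divided by a library size scaled for composition (TMM) and multiplied by 1000000. The levels of CmACO1 and CmNAC-NOR are not compared with each other, since gene lengths were not at hand. Total counts lay between 17299247 and 23261097 per library, and both genes were among the 18426 tested after a filter on low counts. The lowest level of either gene in any library was 5.58 CPM, from 129 counts, so neither was near the detection limit. In bulk fruit RNA, fewer cells of a type and less RNA per cell cannot be told apart.

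CmACO1 was low in young fruit and was one of the most counted genes from day 25 on. From day 15 on it was higher in YMR than in HDB. Its YMR libraries of day 5 had 83.5, 130 and 245 CPM, those of day 15 had 571, 1231 and 284, those of day 25 had 6691, 8936 and 8883, those of day 30 had 20989, 23664 and 19739, and those of day 35 had 15922, 12933 and 11993. In HDB, day 5 gave 95.01, 332 and 197 CPM, day 15 gave 261, 216 and 94.1, day 25 gave 3451, 3097 and 4317, day 30 gave 8842, 6158 and 7538, and day 35 gave 7273, 4137 and 6741. Day 30 held the highest library of each cultivar, and from day 15 on every YMR library lay above every HDB library of the same day. The means at day 30 were 21464 ± 2005 CPM in YMR and 7513 ± 1342 in HDB (SD, n = 3 each).

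At that peak CmACO1 took 1.81% ± 0.14 of all counts in YMR, where it ranked 2 by count among all genes in all 3 libraries, and 0.748% ± 0.12 in HDB, where it ranked 5 or 6 (SD, n = 3 each). At day 5 its share was 0.0183% ± 0.0096 in YMR and 0.0235% ± 0.013 in HDB.

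CmNAC-NOR was also low at day 5 and rose earlier, with a peak at day 30 in YMR and at day 25 in HDB. In YMR, day 5 gave 5.58, 10.98 and 6.69 CPM, day 15 gave 505, 273 and 479, day 25 gave 908, 877 and 954, day 30 gave 1529, 1499 and 1492, and day 35 gave 1057, 758 and 1040. In HDB, day 5 gave 14.1, 12.8 and 23.6 CPM, day 15 gave 184, 351 and 311, day 25 gave 1473, 1625 and 1494, day 30 gave 1044, 877 and 1093, and day 35 gave 850, 959 and 892. The highest means were close: 1507 ± 19.6 CPM at day 30 in YMR and 1531 ± 82.5 at day 25 in HDB (SD, n = 3 each), with library values that overlapped. YMR at day 25 was 60.6% of its own peak, and HDB at day 30 was 65.6% of its own.

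**Figure D1:**
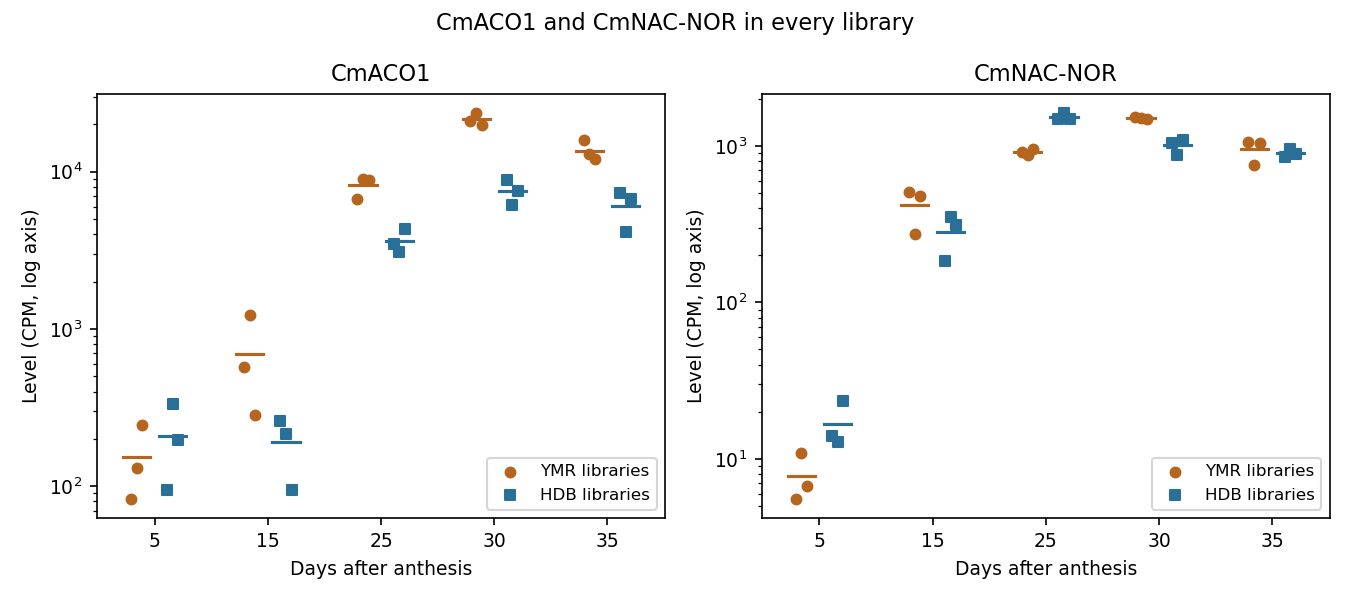
Level of CmACO1 (left) and CmNAC-NOR (right) in every library, in CPM on a log axis, against days after anthesis. Circles are YMR libraries, squares HDB libraries and bars the mean of 3. The YMR circles of CmACO1 lie above all HDB squares of the same day from day 15 on, while CmNAC-NOR is highest at day 30 in YMR (1507 CPM) and at day 25 in HDB (1531 CPM).

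Ordered by mean level, CmACO1 ran from YMR day 30 (21464 CPM) through YMR day 35 (13616 ± 2052), YMR day 25 (8170 ± 1281), HDB day 30 (7513), HDB day 35 (6050 ± 1678), HDB day 25 (3622 ± 628), YMR day 15 (695 ± 486), HDB day 5 (208 ± 119) and HDB day 15 (190 ± 86.4) to YMR day 5 (153 ± 83.2 CPM; SD, n = 3 each). Of the 9 pairs of neighbours in this order, 6 had library values that overlapped. Overlap is a description, not a test, and does not show that such groups were alike. The 4 groups from YMR day 25 to HDB day 25 formed a chain of overlapping neighbours, and so did the 4 lowest groups. The step between the chains, HDB day 25 to YMR day 15, had no overlap. CmNAC-NOR ran from HDB day 25 (1531 CPM) through YMR day 30 (1507), HDB day 30 (1005 ± 113), YMR day 35 (952 ± 168), YMR day 25 (913 ± 38.4), HDB day 35 (900 ± 55.3), YMR day 15 (419 ± 127), HDB day 15 (282 ± 87.4) and HDB day 5 (16.8 ± 5.93) to YMR day 5 (7.75 ± 2.85 CPM; SD, n = 3 each). Here 5 of the 9 neighbouring pairs overlapped, namely the top pair, the 3 within the group of HDB day 30 to HDB day 35, and the day 15 groups of both cultivars. With total-count scaling YMR day 25 dropped below HDB day 30 for CmACO1, and YMR day 35, YMR day 25 and HDB day 35 changed order for CmNAC-NOR.

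The comparison of the cultivars at each day shows how far the 2 genes moved together. CmACO1 was higher in YMR on 4 of 5 days, and CmNAC-NOR was lower in YMR on 2 days and passed on no other. Each difference below is a log2 difference, YMR minus HDB, tested with edgeR's quasi-likelihood test and adjusted over all 18426 genes of the comparison.

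At day 5 CmACO1 did not pass (log2 difference -0.44, SE 0.45, 95% interval -1.33 to 0.44, edgeR adjusted p = 0.53), with libraries that overlapped and spanned a 2.94-fold range in YMR and a 3.49-fold range in HDB. CmNAC-NOR was 2.16-fold lower in YMR at this day (log2 difference -1.11, SE 0.26, edgeR adjusted p = 0.0036), without overlap, at the lowest levels of its course. Of all genes tested 21.8% passed the test at day 5 and 36.2% had no overlap. With only the 6 libraries of the day in the fit the call of CmNAC-NOR was lost (-1.09, edgeR adjusted p = 0.06).

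At day 15 CmACO1 was 3.65-fold higher in YMR (log2 difference 1.87, SE 0.47, edgeR adjusted p = 0.0027), against a background of 40.9% of genes called, and its libraries did not overlap, as in 42.1% of genes. The lowest YMR library, at 284 CPM, stood just above the highest HDB library, at 261 CPM. Replicate 2 of YMR, at 1231 CPM, carried much of the difference: without it the log2 difference was 1.17 (edgeR adjusted p = 0.046). With only the 6 libraries of the day in the fit the difference was 1.91 and the call was lost (edgeR adjusted p = 0.075). CmNAC-NOR had a log2 difference of 0.57 (SE 0.25, 95% interval 0.09 to 1.06, edgeR adjusted p = 0.068) and overlapping libraries. When replicate 2 of HDB or replicate 2 of YMR was left out, it passed (log2 difference 0.76 and 0.80, edgeR adjusted p = 0.036 and 0.015).

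At day 25 the 2 genes differed in opposite directions. CmACO1 was 2.26-fold higher in YMR (log2 difference 1.17, SE 0.46, edgeR adjusted p = 0.037), while CmNAC-NOR was 1.68-fold lower in YMR (log2 difference -0.75, SE 0.25, edgeR adjusted p = 0.015). Neither gene's libraries overlapped at this day, as was the case for 60.5% of genes, and 48.3% were called. The call of CmACO1 was lost without any single HDB library of the day or without replicate 2 or 3 of YMR (log2 difference 1.07 to 1.32, edgeR adjusted p = 0.051 to 0.11), and with total-count scaling (0.82, edgeR adjusted p = 0.11). With only the 6 libraries of the day in the fit it passed (1.12, edgeR adjusted p = 0.00038). The call of CmNAC-NOR held under each alternative run, with differences of -1.10 to -0.70.

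At day 30 CmACO1 was 2.86-fold higher in YMR (log2 difference 1.51, SE 0.46, edgeR adjusted p = 0.013), with 33.4% of genes called and 48.4% without overlap. It lost the call without replicate 2 of HDB (1.39, edgeR adjusted p = 0.057). CmNAC-NOR also had no overlap, with 1492 to 1529 CPM in YMR and 877 to 1093 CPM in HDB, yet its log2 difference of 0.58 (SE 0.25, edgeR adjusted p = 0.071) missed the threshold in the fit to all libraries. It passed with DESeq2 (0.59, adjusted p = 0.048) and with only the 6 libraries of the day in edgeR (0.56, adjusted p = 0.0019), while with total-count scaling the difference was 0.34 (edgeR adjusted p = 0.32).

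At day 35 CmACO1 was 2.25-fold higher in YMR (log2 difference 1.17, SE 0.46, edgeR adjusted p = 0.038), without overlap, where 47.7% of genes were called and 57.9% had no overlap. The call was lost without any single library of the day (0.99 to 1.32, edgeR adjusted p = 0.05 to 0.13) and with total-count scaling (1.02, edgeR adjusted p = 0.053), and passed with only the 6 libraries in the fit (1.18, edgeR adjusted p = 0.0018). CmNAC-NOR had 952 CPM in YMR and 900 CPM in HDB, a log2 difference of 0.08 (SE 0.25, 95% interval -0.40 to 0.56, edgeR adjusted p = 0.84), with overlapping libraries.

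**Figure D2:**
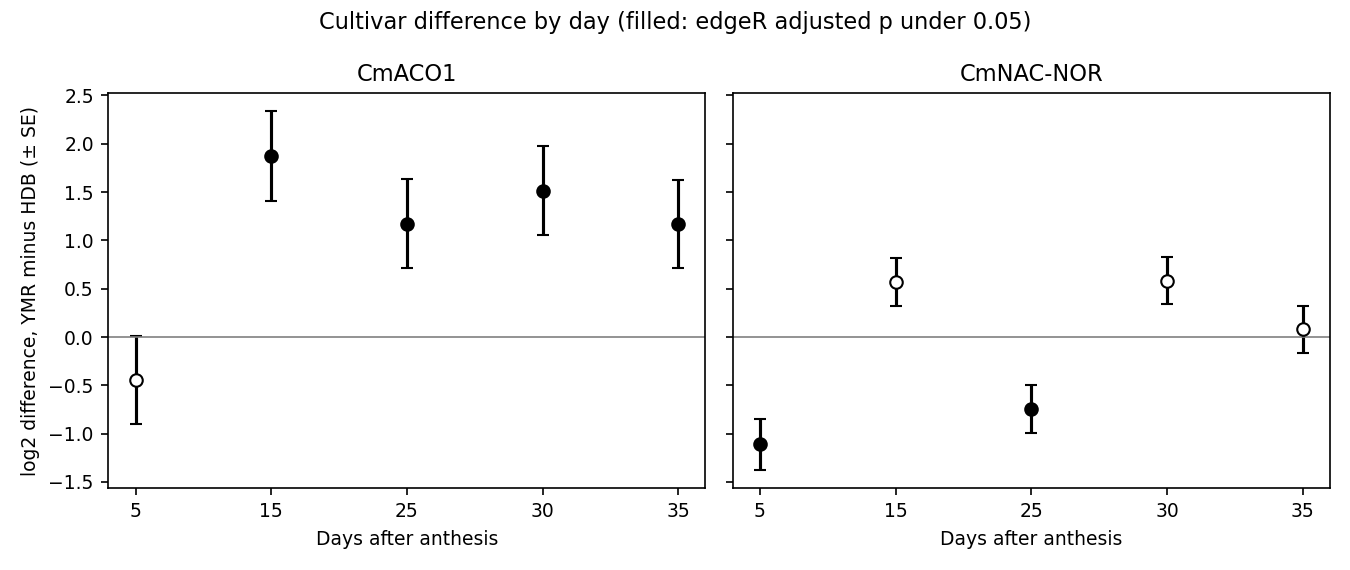
Log2 difference between the cultivars, YMR minus HDB, with its standard error, by days after anthesis for CmACO1 (left) and CmNAC-NOR (right). Filled points passed edgeR's test at an adjusted p under 0.05: CmACO1 lies above 0 from day 15 on (1.17 to 1.87), and CmNAC-NOR lies below 0 at days 5 and 25 (-1.11 and -0.75).

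The model shares its estimate of the spread over all groups. The standard errors of CmACO1 at later days thus draw on its spread in young fruit. Those at days 5 and 15 draw on its smaller spread in later fruit, and may be too small. Within groups, the SD of its log2 CPM was 0.78 to 1.06 at days 5 and 15 in YMR and 0.78 to 0.91 in HDB, where the median over all genes tested was 0.19 to 0.25. From day 25 on it was 0.13 to 0.24 in YMR and 0.24 to 0.44 in HDB. The medians over all genes were then 0.16 to 0.18 in YMR and 0.12 to 0.17 in HDB. CmNAC-NOR was tightest at the peak of YMR, with an SD of 0.019 at day 30, smaller than that of 93.8% of genes, and 0.077 at day 25 in HDB. Its SD at days 5 and 15 was larger, at 0.499 and 0.490 in YMR and 0.475 and 0.497 in HDB. Its standard errors at days 5 and 15 may thus be too small as well.

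Within each cultivar, successive days were compared to follow the genes as the fruit aged. On the log2 scale CmNAC-NOR made most of its rise by day 15, and the largest step of CmACO1 lay between days 15 and 25. Over the whole span CmACO1 was 89.0-fold higher at day 35 than at day 5 in YMR (log2 change 6.48, SE 0.57, edgeR adjusted p = 4.3e-10) and 29.1-fold higher in HDB (4.86, SE 0.53, edgeR adjusted p = 1.4e-08). CmNAC-NOR was 122-fold higher at day 35 in YMR (6.94, SE 0.32, edgeR adjusted p = 2.8e-15) and 53.6-fold higher in HDB (5.74, SE 0.30, edgeR adjusted p = 2.4e-14). A change over this span was common, with 75.4% of genes called and 76.4% without overlap in YMR, and 79.3% and 81.6% in HDB, but few genes rose more: 1.05% had a larger log2 rise than CmACO1 and 0.879% than CmNAC-NOR in YMR, and 1.69% and 1.22% in HDB.

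From day 5 to day 15 CmNAC-NOR rose 53.9-fold in YMR, to 419 CPM at day 15 against 7.75 CPM at day 5 (log2 change 5.75, SE 0.31, edgeR adjusted p = 4.7e-13). In HDB it rose 16.8-fold, to 282 CPM at day 15 against 16.8 CPM at day 5 (4.07, SE 0.28, edgeR adjusted p = 4.5e-11). These rises ranked 93 and 224 among the log2 changes of 18426 genes, where 57.4% of genes were called in YMR and 59.4% in HDB. The days did not overlap in either cultivar, as in 58.5% of genes in YMR and 60.9% in HDB. CmACO1 rose 4.55-fold in YMR (2.18, SE 0.47, edgeR adjusted p = 4e-04), and by 1.48 on the log2 scale when replicate 2 of day 15 was left out (edgeR adjusted p = 0.0077). In HDB it had 190 CPM at day 15 and 208 CPM at day 5, which is -0.13 on the log2 scale with a 95% interval of -1.01 to 0.76 (edgeR adjusted p = 0.82), and the libraries of the 2 days overlapped. Its sign there depended on single libraries: the change was 0.38 when replicate 2 of day 5 was left out and 0.20 when replicate 3 of day 15 was.

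From day 15 to day 25 CmACO1 rose 11.8-fold in YMR (log2 change 3.55, SE 0.50, edgeR adjusted p = 1.3e-06) and 19.0-fold in HDB (4.25, SE 0.52, edgeR adjusted p = 1.2e-07), with 67.4% of genes called in YMR and 71% in HDB. The YMR change was 4.26 when replicate 2 of day 15 was left out (edgeR adjusted p = 4.9e-07). For both genes every library of day 25 lay above every library of day 15 in its cultivar, and 68.5% of genes in YMR and 73.5% in HDB had no overlap between these days. In log2 units this step made up 49.8% of the rise of CmACO1 to its day 30 peak in YMR and 82.1% in HDB. CmNAC-NOR rose 2.18-fold in YMR (1.12, SE 0.25, edgeR adjusted p = 0.00036) and 5.43-fold in HDB (2.44, SE 0.26, edgeR adjusted p = 1.1e-08). With total-count scaling, under which the median log2 change of all genes in YMR was -0.66 at this step, against -0.07 with TMM, the YMR rise of CmNAC-NOR was 0.52 and was not called (edgeR adjusted p = 0.08). By day 15 CmNAC-NOR had already made 75.7% of the log2 rise to its day 30 peak in YMR, and in HDB 62.5% of that to its day 25 peak. In CPM, its day 15 mean was 27.8% of the peak mean in YMR and 18.4% in HDB.

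From day 25 to day 30 CmACO1 rose 2.63-fold in YMR (log2 change 1.39, SE 0.46, edgeR adjusted p = 0.016), where 45% of genes were called and 55.6% had no overlap. The call was lost without replicate 1 of YMR day 25 (1.30, edgeR adjusted p = 0.061). In HDB its log2 change was 1.05 (SE 0.46, edgeR adjusted p = 0.067), without overlap between the days, as for 58.3% of genes. With only the 6 compared libraries it passed (1.10, edgeR adjusted p = 0.00019). For CmNAC-NOR the mean moved in opposite directions. In YMR it rose 1.65-fold, to 1507 CPM at day 30 against 913 CPM at day 25 (0.72, SE 0.25, edgeR adjusted p = 0.02). In HDB it had 1005 CPM at day 30 and 1531 CPM at day 25, a log2 difference of -0.61 between the days (SE 0.25, edgeR adjusted p = 0.051) with no overlap, where 41.8% of genes were called. This HDB change passed with DESeq2 (-0.62, adjusted p = 0.03), with RLE size factors (-0.62, edgeR adjusted p = 0.045) and with only the 6 compared libraries (-0.56, edgeR adjusted p = 0.001).

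From day 30 to day 35 both genes were lower at the later day in each cultivar by mean level, and 1 of the 4 changes passed. CmNAC-NOR fell 1.58-fold in YMR, to 952 CPM at day 35 against 1507 CPM at day 30 (log2 change -0.66, SE 0.25, edgeR adjusted p = 0.044), where 30.6% of genes were called. That call was lost without any single library of the 2 days (-0.74 to -0.52, edgeR adjusted p = 0.06 to 0.18), with RLE size factors (-0.63, edgeR adjusted p = 0.053), with total-count scaling (-0.56, edgeR adjusted p = 0.12) and without the low-count filter (-0.64, edgeR adjusted p = 0.058). In YMR the CmACO1 mean was 13616 CPM at day 35, against 21464 CPM at day 30, without overlap, as for 46.9% of genes (-0.66, SE 0.45, edgeR adjusted p = 0.29). With only the 6 compared libraries this change passed (-0.63, edgeR adjusted p = 0.01). In HDB the log2 changes were -0.31 for CmACO1 (SE 0.45, 95% interval -1.20 to 0.57, edgeR adjusted p = 0.66) and -0.16 for CmNAC-NOR (SE 0.25, 95% interval -0.64 to 0.33, edgeR adjusted p = 0.69), with overlapping libraries, where 27.5% of genes were called and 44.4% had no overlap.

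**Figure D3:**
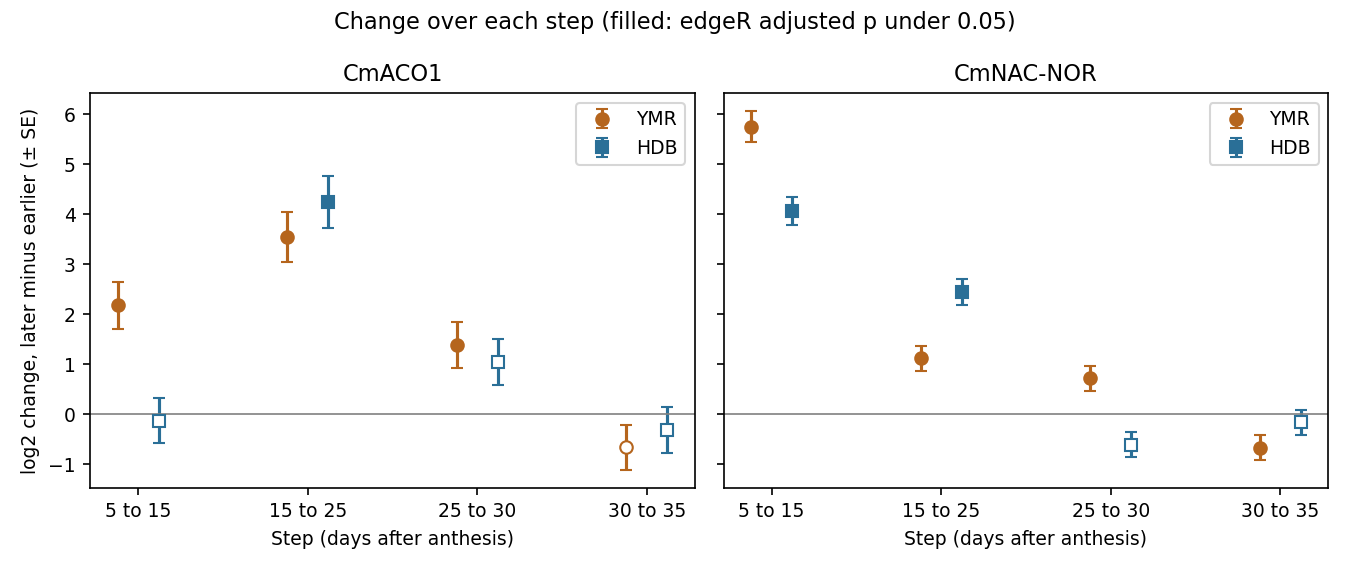
Log2 change over each step, later minus earlier day, with its standard error, for CmACO1 (left) and CmNAC-NOR (right). Circles are YMR, squares HDB, and filled symbols passed edgeR's test at an adjusted p under 0.05. The largest change of CmACO1 is from day 15 to day 25 (3.55 in YMR, 4.25 in HDB) and that of CmNAC-NOR from day 5 to day 15 (5.75 and 4.07).

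Scored as rise, fall or no call over the 4 steps, CmACO1 had 3 rises and no call in YMR, and in HDB a rise from day 15 to day 25 with no other call. The YMR pattern was found in 1.31% of the 18426 genes, the HDB pattern in 4.74%, and both together in 10 genes. CmNAC-NOR had 3 rises and a fall in YMR, and in HDB 2 rises followed by no call. Its YMR pattern was found in 0.814% of genes, its HDB pattern in 3.13%, and both together in 35 genes. Since several of these calls lay near the threshold, the counts describe this fit only.

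Whether YMR and HDB changed differently over time was tested as the difference of their changes. The courses of both genes differed when the 4 steps were tested together (CmACO1 edgeR adjusted p = 0.025, CmNAC-NOR edgeR adjusted p = 3e-04), as did those of 74.4% of all genes. For CmACO1 this call was lost when replicate 1 of YMR day 5, replicate 2 of YMR day 5 or replicate 2 of HDB day 5 was left out (edgeR adjusted p = 0.093, 0.078 and 0.13). For CmNAC-NOR it held without each library in turn.

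By step, the difference for CmACO1 lay in the first. From day 5 to day 15 its log2 change was 2.18 in YMR and -0.13 in HDB, a difference of 2.31 (SE 0.65, edgeR adjusted p = 0.0081) with 34.8% of genes called. When replicate 2 of YMR day 15 was left out the difference was 1.61 (edgeR adjusted p = 0.047), and over all left-out libraries it was 1.61 to 2.83. With only the 12 libraries of these groups in the fit the difference was 2.27 and was not called (edgeR adjusted p = 0.088). Over the 3 later steps the differences were -0.70 (95% interval -1.95 to 0.56), 0.34 (-0.91 to 1.59) and -0.34 (-1.59 to 0.91), and none passed (edgeR adjusted p = 0.4, 0.75 and 0.74, with 41.4%, 30% and 33.1% of genes called). These intervals are wide and do not show that the cultivars changed alike. Over the whole span the difference was 1.61 (SE 0.64, edgeR adjusted p = 0.053), where 36% of genes were called. It passed with RLE size factors (1.67, edgeR adjusted p = 0.046), with DESeq2 (1.67, adjusted p = 0.02), and when replicate 3 of YMR day 5 or replicate 1 of HDB day 5 was left out (2.13 and 1.96, edgeR adjusted p = 0.015 and 0.018).

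CmNAC-NOR differed between the cultivars over the first 3 steps, in alternating direction. From day 5 to day 15 its log2 change was 5.75 in YMR and 4.07 in HDB (difference 1.68, SE 0.36, edgeR adjusted p = 0.001). From day 15 to day 25 it was 1.12 in YMR and 2.44 in HDB (difference -1.32, SE 0.35, edgeR adjusted p = 0.0041). From day 25 to day 30 it was 0.72 in YMR and -0.61 in HDB (difference 1.33, SE 0.35, edgeR adjusted p = 0.0057). These 3 calls held under each alternative run. The last step gave -0.50 (SE 0.35, edgeR adjusted p = 0.29), and the whole span gave 1.19 (SE 0.36, edgeR adjusted p = 0.011). The span difference was 0.87 and not called when replicate 3 of HDB day 5 was left out (edgeR adjusted p = 0.059).

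Changes in scaling cancel in the ratio of the 2 genes' counts within a library, which shows only that they changed unequally. The ratio of CmACO1 to CmNAC-NOR counts was 15.0, 11.8 and 36.7 in the YMR libraries of day 5. Day 15 gave 1.13, 4.50 and 0.593, day 25 gave 7.37, 10.2 and 9.32, day 30 gave 13.7, 15.8 and 13.2, and day 35 gave 15.1, 17.1 and 11.5. In HDB, day 5 gave 6.76, 26.0 and 8.35, day 15 gave 1.42, 0.615 and 0.302, day 25 gave 2.34, 1.91 and 2.89, day 30 gave 8.47, 7.02 and 6.90, and day 35 gave 8.56, 4.31 and 7.55. The ratio was lowest at day 15 in both cultivars and was higher in every YMR library than in every HDB library at days 25, 30 and 35. The mean log2 difference of the ratio, YMR minus HDB, was 1.92 at day 25, 0.94 at day 30 and 1.14 at day 35 (two-sided exact permutation p = 0.1 each, the smallest that 3 against 3 libraries can give), and 0.72 at day 5 and 1.17 at day 15, with overlap (exact permutation p = 0.4 and 0.5).

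**Figure D4:**
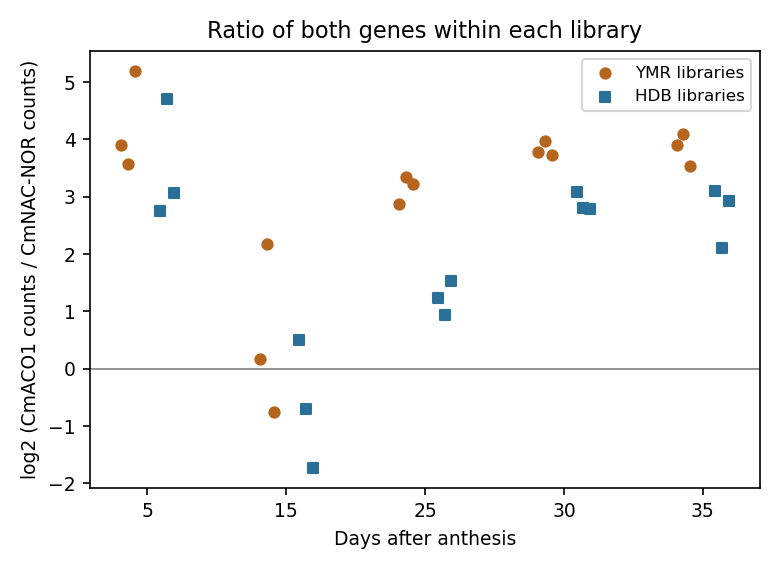
Log2 ratio of CmACO1 counts to CmNAC-NOR counts within each library, against days after anthesis, with YMR as circles and HDB as squares. The ratio is lowest at day 15, with a mean of 0.53 in YMR and -0.64 in HDB, and the YMR libraries lie above the HDB libraries at days 25, 30 and 35.

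The genes most like each of the 2 were found by Pearson's r of mean log2 CPM over the 10 groups, among 13468 genes with a mean of at least 10 CPM in some group. The 10 points share libraries and scaling between genes, so r is a description, and it compares shapes, not sizes of change. For CmACO1 the 5 nearest were MELO3C003847 (r = 0.992), MELO3C003803 (0.991), MELO3C017004 (0.991), MELO3C003243 (0.989) and MELO3C007692 (0.989). In YMR, MELO3C003847 reached 38.9 ± 7.97 CPM at day 30, against 1.94 ± 0.402 at day 5, and in HDB 17.4 ± 0.999, against 1.23 ± 0.275 (SD, n = 3 each). MELO3C003243 followed a like shape over a small range, with 57.6 ± 6.58 CPM at day 30, against 24.6 ± 2.89 at day 5, in YMR. For CmNAC-NOR the 5 nearest were MELO3C021231 (r = 0.993), MELO3C013366 (0.991), MELO3C005577 (0.990), MELO3C002118 (0.989) and MELO3C012055 (0.989). MELO3C005577 shared the shifted peak, with 2136 ± 47.9 CPM at day 30 in YMR and 1903 ± 44.4 at day 25 in HDB. By mean level MELO3C013366 and MELO3C002118 had these peak days too. The YMR means of MELO3C002118 were close, though: 176 ± 11.2 CPM for day 25, against 179 ± 10.9 for day 30. The nearest gene, MELO3C021231, had its top mean on day 25 in both cultivars, so it lacked the shift. Its YMR mean of that day was 527 ± 67.5 CPM, close to the 521 ± 135 of day 30. MELO3C012055 lacked it as well: it was highest at day 30 in YMR (2249 ± 230 CPM) and at day 35 in HDB (1521 ± 177 CPM).

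The 2 ripening genes were not among each other's 5 nearest. Their own r over the 10 groups was 0.833, which placed CmNAC-NOR 1860th among the genes most like CmACO1, and CmACO1 1184th among those most like CmNAC-NOR. An r above 0.9 with CmACO1 was found for 955 genes (7.09%), and with CmNAC-NOR for 417 genes (3.10%).

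**Figure D5:**
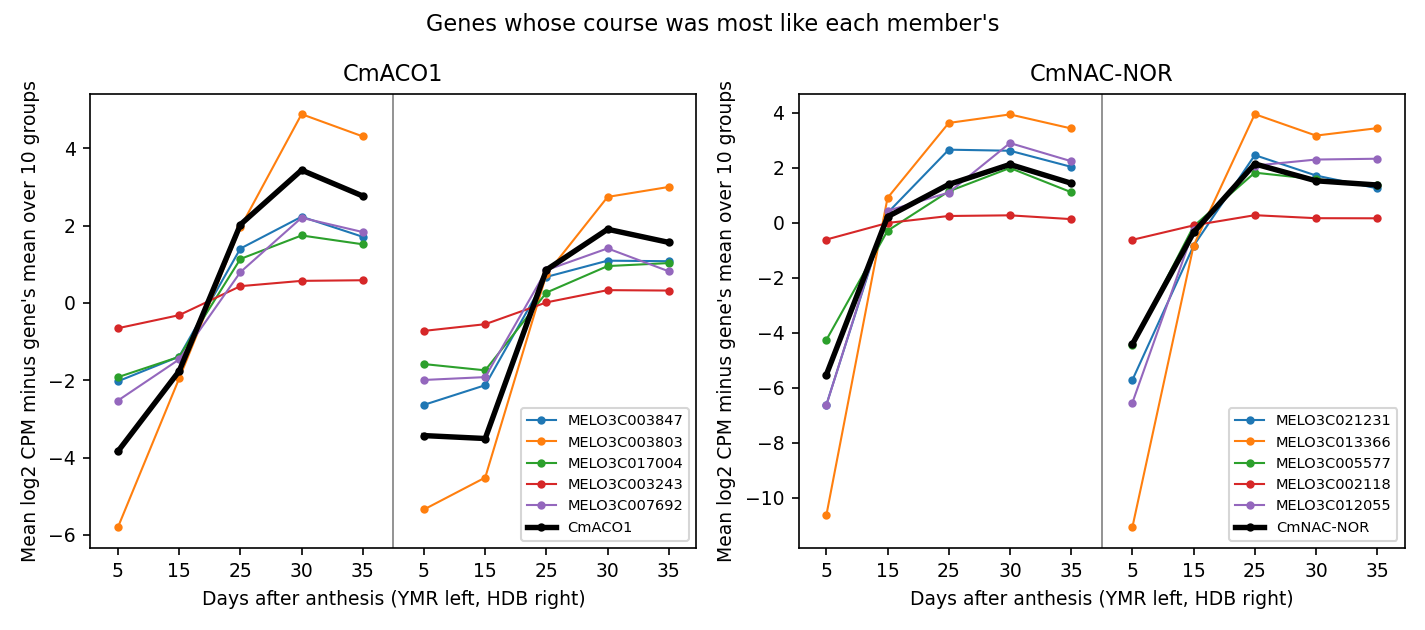
Mean log2 CPM of each gene minus its own mean over the 10 groups, against days after anthesis, YMR on the left and HDB on the right of each panel. The black line is CmACO1 (left panel) or CmNAC-NOR (right panel). The coloured lines are the 5 genes with the highest r to it, from 0.989 to 0.993. In HDB, MELO3C012055 has its highest mean at day 35 and CmNAC-NOR at day 25.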

How the data were processed

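Fruit RNA of 30 libraries was sequenced, and the values in the deposited table are whole-number read counts for each gene, which the authors did not normalise. HISAT2, an aligner, and HTSeq, a counter, are named without versions in the submitters' processing notes. How reads were assigned, and on which genome build, annotation and strand, is not given in the sources used here, so reads shared with similar or overlapping genes may be split or lost. No sequences are shown.

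Columns were matched to libraries by title. Replicates differed beyond sampling noise (chi-square per degree of freedom 7.35 to 118), so each counted as 1. Genes were kept by filterByExpr (minimum count 10, total 15), scaled by TMM and tested with edgeR 4.0.16 (R 4.3.3, limma 3.58.1), with a mean per group over all 30 libraries, robust dispersions and Benjamini-Hochberg adjustment over all 18426 genes of a comparison (called under 0.05). The standard error was taken from the log2 fold change and the square root of its F, and 95% intervals from a normal approximation to it. The model was also run on simulated data, for YMR minus HDB at day 25 only and with the same spread in every group. That check does not cover the larger spread of CmACO1 and CmNAC-NOR at days 5 and 15. Log2 CPM for likeness used a prior count of 2.

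The rule for named genes took both genes and, for each, the 5 with the highest r. The genes, lists and tests were chosen with earlier results of these data known. Alternatives were RLE size factors, total-count scaling, DESeq2 1.42.0, no filter, a replicate block, only the compared groups and each library left out, plus Spearman's rho and all 30 libraries for likeness. Precision is limited by 3 libraries per group.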

Additional observations from a re-analysis of the deposited data

Results flagged for a closer look

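In 5 cases YMR and HDB changed differently by the test of the difference itself (edgeR adjusted p under 0.05, log2 change in YMR minus log2 change in HDB). For CmACO1 this was the step from day 5 to day 15, with a difference of 2.31 (1.61 when replicate 2 of YMR day 15 was left out). For CmNAC-NOR these were the steps from day 5 to day 15 (1.68), from day 15 to day 25 (-1.32) and from day 25 to day 30 (1.33), and the whole span from day 5 to day 35 (1.19). Each gene had 5 such tests, and 30% to 41.4% of all genes were called in the same comparisons.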

How the results depend on the processing

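The values below are log2 differences under alternatives that moved a call or a sign; the causes were not tested. With RLE size factors they were -0.63 for CmNAC-NOR in YMR, day 35 minus day 30 (lost), -0.62 for CmNAC-NOR in HDB, day 30 minus day 25, and 1.67 for the difference of the CmACO1 changes, day 35 minus day 5 (both gained). With total-count scaling, YMR minus HDB for CmACO1 was 0.82 at day 25 and 1.02 at day 35 (both lost), CmNAC-NOR at day 35 had -0.068 (reversed, not called), CmNAC-NOR in YMR had 0.52 for day 25 minus day 15 and -0.56 for day 35 minus day 30 (both lost), and CmACO1 in HDB had 1.09 for day 30 minus day 25 (gained). This scaling also moved the median log2 value over all genes by -0.31 at day 25 and -0.23 at day 30, YMR minus HDB, by -0.58, 0.11 and -0.40 in YMR for day 25 minus day 15, day 30 minus day 25 and day 35 minus day 5, by -0.22 and -0.19 in HDB for day 25 minus day 15 and day 35 minus day 5, and by -0.35 and -0.20 for the differences of changes over those 2 spans. Without the filter, CmNAC-NOR in YMR had -0.64 for day 35 minus day 30 (lost). With DESeq2 4 calls were gained: 0.59 for CmNAC-NOR at day 30, 1.04 for CmACO1 and -0.62 for CmNAC-NOR in HDB, day 30 minus day 25, and 1.67 for the whole-span difference of CmACO1. With only the compared groups, -1.09 for CmNAC-NOR at day 5, 1.91 for CmACO1 at day 15 and 2.27 for its difference of changes, day 15 minus day 5, were lost, and 5 were gained: 0.56 for CmNAC-NOR at day 30, -0.63 for CmACO1 in YMR, day 35 minus day 30, 1.10 for CmACO1 and -0.56 for CmNAC-NOR in HDB, day 30 minus day 25, and -0.46 for the difference of CmNAC-NOR changes, day 35 minus day 30.

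The replicate block changed none of 42 results (CmACO1 at day 25 was then 1.16). The labels do not say whether replicate numbers pair the libraries. In 0 of 15 compared pairs of groups were all 3 correlations of same-numbered libraries over 0.1 (range -0.27 to 0.32). In 0 did every library correlate best with its own number. With 3 libraries per group these values cannot exclude a pairing.

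Leaving out 1 library at a time gave, for CmACO1, YMR minus HDB of -0.96 to 0.065 at day 5, 1.07 to 1.32 at day 25, 1.39 to 1.65 at day 30 and 0.99 to 1.32 at day 35. It gave -0.48 to 0.38 for CmACO1 in HDB, day 15 minus day 5 (0.20 without replicate 3 of day 15), 1.30 to 1.51 in YMR, day 30 minus day 25, -1.07 to 0.0064 for the difference of changes, day 25 minus day 15, 1.11 to 2.13 for that of day 35 minus day 5, and F of 2.19 to 5.38 for the 4 steps together. For CmNAC-NOR it gave YMR minus HDB of 0.34 to 0.80 at day 15 and -0.0011 to 0.22 at day 35, -0.74 to -0.52 in YMR, day 35 minus day 30, and 0.87 to 1.53 for the whole-span difference of changes. Over all left-out libraries, 328 values kept direction and side of the threshold, 23 lost the call, 4 gained it and 5 reversed.

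The number of genes called moved by over 1.5 times with a fit of the compared groups alone, to 2529 from 4012 at day 5, 3459 from 7537 at day 15 and 4028 from 6406 for the difference of changes, day 15 minus day 5, and to 2667 at day 5 without replicate 3 of HDB. Of the 5 genes most like CmACO1, 3 were shared when all 30 libraries replaced the group means and 0 with Spearman's rho; for CmNAC-NOR 4 and 0 were shared.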

Other observations

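At day 15 the library of each cultivar with the most CmACO1 had the least CmNAC-NOR, while the other libraries stood in the same order for both genes. In YMR, replicate 2 had the highest level of CmACO1 (1231 CPM) and the lowest of CmNAC-NOR (273 CPM). In HDB, replicate 1 had the highest level of CmACO1 (261 CPM) and the lowest of CmNAC-NOR (184 CPM). With 3 libraries a group, no test was made.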
